A study of Mus musculus with 15 samples.

Results

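Bone marrow pre-cDC, the precursors of classical dendritic cells (cDC), were compared with common dendritic cell progenitors (CDP), the stage before them, on 4 of the 15 arrays of the series. The members were the 2 arrays titled as bone marrow pre-cDC and the 2 titled as CDP, chosen by title, and all 34945 probe sets annotated with 1 gene were used out of 45037. The other 11 arrays held further bone marrow progenitors, a pre-cDC sample titled Spl, cultured bone marrow cells and monocytes. Common myeloid progenitors (CMP) and granulocyte-macrophage progenitors (GMP), 2 arrays each, entered the same fit and serve as reference levels. All of these groups came from wild-type C57Bl/6 mice in steady state, with no treatment. Both CDP and pre-cDC were sorted as live cells negative for lineage markers, IL7R, MHCII and CD16/32 and positive for CD135, the Flt3 receptor. CDP were in addition CD11c- with intermediate CD117 (Kit), whereas pre-cDC were CD11c+ with low CD117. CMP were CD117hi CD135+ CD16/32- CD11c-, and GMP were CD117hi CD16/32+ CD135-. The labels give neither the age nor the number of animals, nor whether cells were pooled, and they do not say that the replicates came from separate animals, so the spread behind each p-value is that between 2 samples of a group and may be technical. An array reads RNA from a pool of sorted cells, so a larger share of cells with a transcript and more transcript per cell cannot be told apart.

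In the marrow, CMP give rise to CDP under Flt3 ligand, and CDP have lost most erythroid and granulocyte potential. CDP yield plasmacytoid dendritic cells and pre-cDC, and pre-cDC leave through the blood to seed tissues, where they complete differentiation into cDC1, which cross-present antigen to CD8 T cells, or cDC2, which present on MHC class II to CD4 T cells. The step is known for the loss of Kit and of multipotency, the gain of the integrin CD11c, and the first expression of factors such as Zbtb46 that mark the classical lineage.

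Each gene was represented by its brightest probe set, giving 18193 genes, and is reported as a deposited intensity on each array (replicate 1, then replicate 2) and as the pre-cDC minus CDP difference on the log2(intensity + 32) scale with its standard error. The added 32 compresses the difference of dim genes, and the median of the probe sets with 1 gene on the 4 arrays was 20.5. A gene is said to have risen or fallen in pre-cDC where its limma p-value, adjusted by Benjamini-Hochberg over all 34945 probe sets, was under 0.05. By that rule 5817 of 18193 genes (32.0%) changed: 2498 rose (13.7%) and 3319 fell (18.2%). Of these, 598 rose (3.29%) and 587 fell (3.23%) by at least 2-fold. The median difference over all genes was -0.01, with quartiles of -0.18 and 0.12. For the 6734 genes with a mean above 100 in CDP or pre-cDC, the median was -0.08, with wider quartiles of -0.47 and 0.36. The groups did not overlap on their 2 arrays each for 61.3% of genes, so a gap between groups is by itself common here. Replicate arrays correlated between 0.995 and 0.997, and the medians of the 8 progenitor arrays over all 45037 probe sets lay between 15.9 and 17.4. The counts given for gene groups are to be read against these shares, and their medians against those of all genes and of the brighter genes. In a gene group a count of up to 3 calls can turn on 1 gene, and several such counts changed when an array was left out.

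The genes of the sorting markers followed the gates in part. Kit, the stem cell factor receptor, read 368 and 335 in CDP and 36.3 and 36.8 in pre-cDC, and its difference was -2.48 ± 0.11 (SE, adjusted p = 8.66e-09). Itgax, which encodes CD11c, read 153 and 124 in CDP and 1537 and 1563 in pre-cDC, a difference of 3.22 ± 0.11 (SE, adjusted p = 1.04e-09). For both genes the groups lay apart in the direction of the gate, which is no result of the comparison. Flt3, required in both gates, read 1408 and 1623 in CDP and 1322 and 1434 in pre-cDC and did not pass the test (-0.13 ± 0.11, adjusted p = 0.415). Il7r, absent by gate in both groups, fell from 109 and 94.8 to 31.6 and 26.9. Fcgr2b, an inhibitory IgG receptor whose protein the CD16/32 antibody also binds, rose from 314 and 350.4 to 722 and 766 although both groups were gated negative, and Fcgr3 was dim in CDP (21.9 and 22.3) and in pre-cDC (7.03 and 12). H2-Ab1 rose from 730.1 and 511 to 3549.9 and 3939 (2.55 ± 0.17 SE, adjusted p = 1.73e-07) with both groups gated MHCII-, so the transcript of this class II chain differed among cells sorted as lacking the protein at the surface.

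The largest rise was that of Cd209a, a C-type lectin of the DC-SIGN family that marks cDC2 and monocyte-derived dendritic cells. Cd209a read 36.1 and 26.4 in CDP and 2608 and 2635 in pre-cDC, and the difference was 5.39 ± 0.11 (SE, adjusted p = 1.70e-11). Both pre-cDC arrays stood far above both CDP arrays, while CMP (7.4 and 5.34) and GMP (5.6 and 2.95) were dim. Spib, an Ets-family transcription factor known from plasmacytoid and B cells, followed with 31.3 and 29.5 in CDP and 1524 and 1573 in pre-cDC and a difference of 4.66 ± 0.098 (SE, adjusted p = 1.70e-11). The other 10 of the 12 largest rises included surface receptors, secreted products, enzymes and transcription factors. Cd7, an immunoglobulin-family receptor best known on T cells, rose by 4.46 from 34.8 and 20.6 to 1344 and 1201. Slamf7, a SLAM-family receptor, rose by 4.12 from 49.8 and 39.4 to 1152 and 1457. L1cam, a neural and leukocyte adhesion molecule, rose by 3.88 from 182 and 136 to 2621 and 2901. The secreted protein fibronectin (Fn1) rose from 71.5 and 46 to 1869.9 and 1862, and the chemokine gene Ccl6 from 99.2 and 76.2 to 1844 and 1710.5. Hpgd, the enzyme that inactivates prostaglandin E2, rose by 3.72, and Plbd1, a phospholipase B-like hydrolase, by 3.69. H2-Eb1, a class II beta chain, and the transcription factors Atf3 and Bhlhe40 completed the set, with differences of 3.86, 3.92 and 3.63. None of the 12 overlapped between the groups, a condition of the rule that named them.

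The largest fall was that of Mpo, myeloperoxidase of primary granules. Mpo read 4123 and 4962 in CDP and 16.8 and 20.1 in pre-cDC, a difference of -6.50 ± 0.094 (SE, adjusted p = 6.52e-13), and was at 5397 and 5071 in CMP and 8478 and 8764 in GMP. CDP therefore still carried Mpo transcript and pre-cDC were at the dim end of the array. Ctsg and Prtn3, which encode granule proteases, fell too (-5.44 and -4.09). Dntt, terminal deoxynucleotidyl transferase of early lymphoid progenitors, fell from 866 and 1118 to 3.42 and 5.46. Cd34, the sialomucin of stem and progenitor cells, fell from 1551 and 1456 to 63.5 and 42.3 without being part of the CDP or pre-cDC gate in the labels. Cd81, a tetraspanin, and Adgrg3, an adhesion G-protein-coupled receptor of myeloid cells, fell (-3.59 and -4.07). Rab44, a Rab-family GTPase, and Slpi, a secreted inhibitor of neutrophil proteases, fell as well (-4.24 and -3.66). Igfbp4, which binds insulin-like growth factors, fell by 3.54. Phgdh, the first enzyme of serine synthesis, fell from 1949.9 and 2242 to 214 and 149. The remaining gene, the transcription factor Nfil3, fell by 3.49 and is described with the other factors. In every one of the 12 both CDP arrays lay above both pre-cDC arrays, again by the naming rule.

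**Figure D1:**
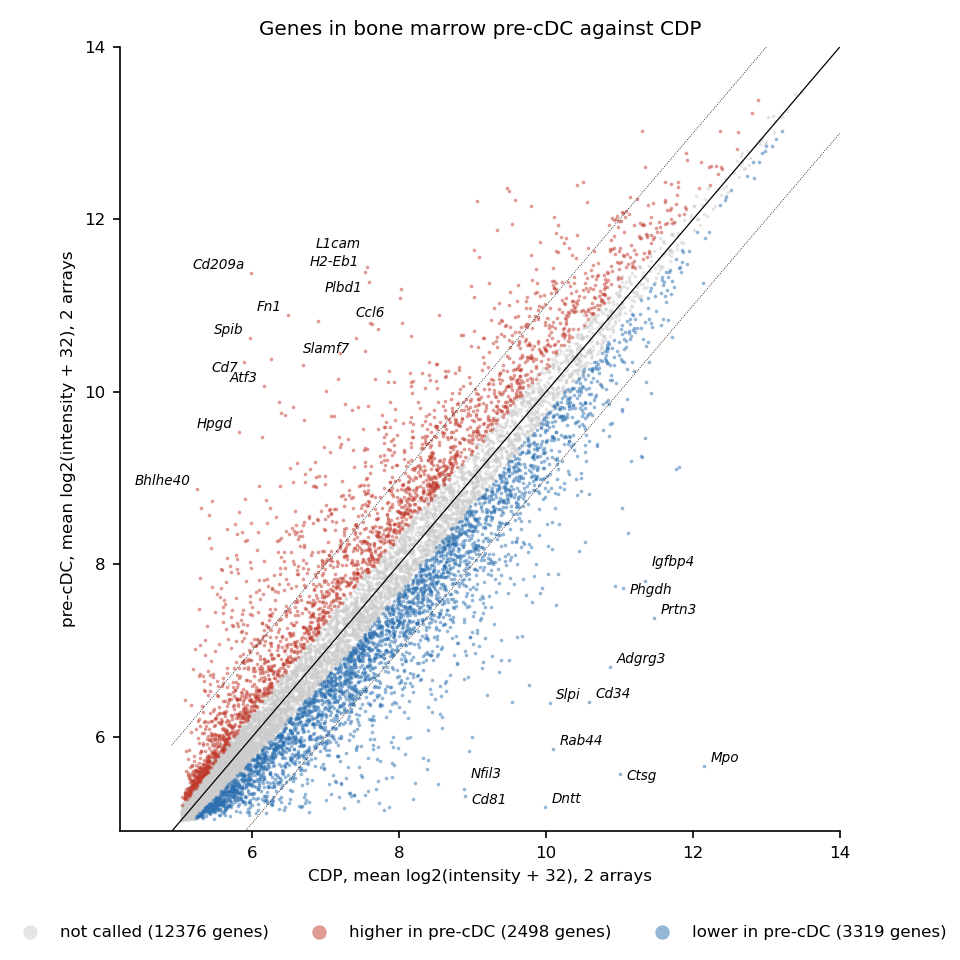
Mean log2(intensity + 32) of 18193 genes in CDP (x axis, 2 arrays) and bone marrow pre-cDC (y axis, 2 arrays), one point a gene; red points rose, blue points fell, grey points were not called. The solid line marks equal levels and the dotted lines a 2-fold difference; the 12 largest rises, led by Cd209a, and the 12 largest falls, led by Mpo, are labelled.

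Of 22 transcription factor genes of dendritic cell development, 15 rose and 3 fell, with a median difference of 0.70. After Spib, the largest rise was that of Irf4, a factor of cDC2 and of antigen presentation. Irf4 read 10.4 and 13.2 in CDP and 357 and 437 in pre-cDC, a difference of 3.28 ± 0.11 (SE, adjusted p = 6.30e-10). Zbtb46, whose expression separates classical dendritic cells from other myeloid cells, read 34.1 and 21.5 in CDP and 383 and 422 in pre-cDC, a difference of 2.87 ± 0.15 (SE, adjusted p = 2.05e-08). Both factors were dim on the CDP, CMP and GMP arrays and clearly above that level on both pre-cDC arrays. Bcl6, a repressor, rose from 123 and 104 to 658 and 699.5. Klf4, a zinc finger factor with a role in cDC2, was already bright in CDP and rose from 1384 and 1297 to 5042 and 5753. Notch2, a receptor that acts through Rbpj in splenic cDC2, rose by 1.17, and Rbpj itself by 0.70. Batf3, the AP-1 factor on which cDC1 depend, rose from 48.9 and 39.1 to 109 and 113 (0.91 ± 0.093 SE, adjusted p = 8.75e-06). Smaller rises were measured for Spi1 (PU.1, the myeloid master factor, 0.91), Relb (0.85), Zeb2 (0.71), Mycl (0.63) and Stat3 (0.55; adjusted p = 0.0638 without pre-cDC replicate 2), and for 2 factors also tied to the plasmacytoid fate, Bcl11a (0.98) and Tcf4 (0.61).

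Irf8, required for CDP function and for cDC1, was bright in both groups. Irf8 read 4489.8 and 4936 in CDP and 4989.5 and 5468 in pre-cDC, and its difference of 0.15 ± 0.075 did not pass the test (adjusted p = 0.173). Its CMP level was 1957 and 2109.6 and its GMP level 1565 and 1556, so its large difference lay between CMP and CDP (1.20 ± 0.075, adjusted p = 1.05e-06). Ikzf1, Etv3 and Nr4a3 did not pass the test either by their brightest probe sets (0.13, 0.22 and 0.071). Of the 2 probe sets of Ikzf1, 1 was called lower, and of the 4 of Etv3, 2 were called higher. The 3 factors that fell were Nfil3, Id2 and Runx3. Id2, an inhibitor of E proteins known to be needed for cDC1, read 509 and 421 in CDP and 159 and 143 in pre-cDC, a difference of -1.44 ± 0.12 (SE, adjusted p = 1.55e-06). In CMP Id2 was at 48.1 and 40.2, so its level was highest in CDP among the 4 groups. Nfil3, a basic leucine zipper factor required for cDC1, behaved in the same way more steeply: it read 45.9 and 46.1 in CMP, 449.6 and 429.9 in CDP and 11.2 and 8.94 in pre-cDC. The pre-cDC minus CDP difference of Nfil3 was -3.49 ± 0.11 (SE, adjusted p = 6.30e-10). Runx3, a Runt factor of Langerhans cells and cDC2, fell from 451 and 441 to 154 and 154.

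The promoter of Spib is shown because this gene had the second largest rise. The sequence is that of GRCm38.p6, from RefSeq, over the 250 bases before the annotated start at chr7:44532072-44532321 on the minus strand. The match to the C/EBP motif TTGCNNAA stands in capitals, begins 121 bases before the start and is read here on the opposite strand.
Spib: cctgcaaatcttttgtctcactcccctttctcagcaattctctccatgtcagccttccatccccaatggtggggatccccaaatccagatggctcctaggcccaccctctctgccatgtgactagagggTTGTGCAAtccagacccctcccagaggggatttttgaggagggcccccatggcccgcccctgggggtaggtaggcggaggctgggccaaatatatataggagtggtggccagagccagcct
The TATA box and motifs chosen for the factors of this lineage, 5 in the first search, were searched on both strands in the 250 bases before each start. Windows were at hand for 92 of the 116 genes called at least 4-fold higher (0.638% of genes were) and for 65 of the 85 called at least 4-fold lower (0.467%), 127 and 84 windows. The interferon-stimulated response element (GAAA, 2 bases of any kind, GAAA) was found in 6.30% of the first, 2.38% of the second and 2.61% of the 18109 windows of all measured genes. The related Ets-IRF composite (GGAA, 2 bases of any kind, GAAA), which can overlap it, was found in 3.94%, 2.38% and 1.98%. For the Ets/PU.1 letters GAGGAAGT the shares were 3.15%, 2.38% and 2.36%, for C/EBP 11%, 10.7% and 8.34%, and for the TATA box TATAAA 11%, 15.5% and 8.81%. These shares were not tested, and a match is a stretch of letters, not a site of binding.

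Of 25 measured transcription factor genes of stem cells and early progenitors, 14 fell and 2 rose, with a median of -0.38. Hoxa9, a homeobox gene of stem and progenitor cells, fell most. Hoxa9 read 638 and 789 in CDP and 59.97 and 45.1 in pre-cDC, a difference of -3.14 ± 0.15 (SE, adjusted p = 8.89e-09), and its partner Meis1 fell from 141 and 126 to 34 and 30.6. Sox4 read 3426 and 3692 in CDP and 536 and 518 in pre-cDC, a difference of -2.68 ± 0.092 (SE, adjusted p = 8.62e-10). Myb, which sustains progenitor proliferation, read 2256 and 2737 in CDP and 589 and 567 in pre-cDC, a difference of -2.04 ± 0.10 (SE, adjusted p = 2.13e-08). For Hoxa9, Sox4 and Myb the pre-cDC arrays were also below every CMP array. Erg and Tal1 fell (-2.51 and -1.92), and Myc, the growth regulator, fell from 683 and 911 to 181 and 211 (-1.85). Gfi1, a repressor needed in neutrophil development, was dim in CDP already (49.6 and 51.3) and fell to 3.87 and 3.92, against 543 and 585 in GMP. Further falls were measured for Satb1 (-1.29), Hoxa7 (-0.87), Lyl1 (-0.65), Hlf (-0.48), Hoxa5 (-0.38) and Hoxa10 (-0.30). Hlf, Hoxa5 and Hoxa10 were dim in CDP (15.7 and 23.6, 27.9 and 31.9 and 13.8 and 12), and the call of Hlf was lost without CDP replicate 2 (adjusted p = 0.22) and without each GMP or pre-cDC array. Bach2, a repressor of plasma cell and effector programmes, went the other way and rose from 301 and 362 to 682 and 797 (1.09 ± 0.14 SE, adjusted p = 4.63e-05). Cebpa rose by 0.41, but its adjusted p was between 0.0572 and 0.286 without either GMP array, CDP replicate 1 or either pre-cDC array, and only Bach2 was then called higher. Runx1, Lmo2, Hhex, Nfe2 and Ikzf2 did not pass the test (-0.12, -0.15, 0.14, -0.051 and -0.32), nor did the dim Gata2, Mecom, Trib2 and Mycn (-0.30, -0.16, 0.078 and 0.026).

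**Figure D2:**
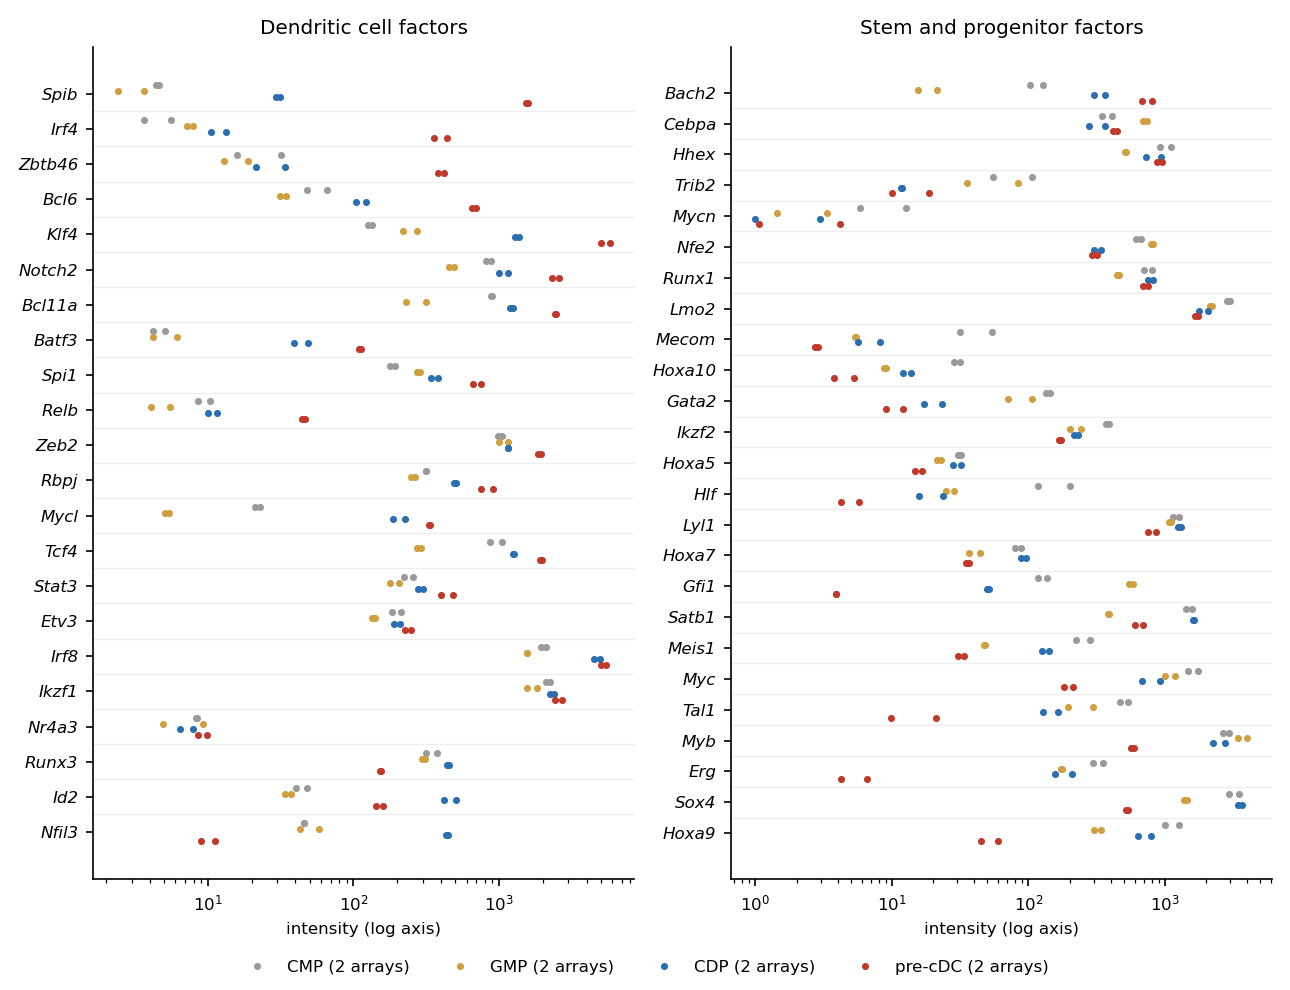
Intensity (log axis) of 22 dendritic cell factors (left) and 25 stem and progenitor factors (right) on each of the 2 arrays of CMP, GMP, CDP and pre-cDC; each point is 1 array, and genes are ordered by their pre-cDC minus CDP difference. Spib, Irf4 and Zbtb46 are separated from all other groups in pre-cDC, Nfil3 and Id2 are highest in CDP, and Hoxa9, Sox4 and Erg are lowest in pre-cDC.

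Surface molecules of progenitors made up the list with the lowest median, -2.23: 11 of 15 fell and 2 rose. Beside Cd34 and Kit, the largest falls were those of Sdc1, Egfl7 and Adgrg1. Kit was part of the gates, so its fall is no result of the comparison. Sdc1 (syndecan, a heparan sulfate proteoglycan) fell from 531 and 399 to 32.1 and 18.4. Egfl7, a secreted factor of endothelium and stem cells, fell from 312 and 362 to 12.9 and 10.9, and Adgrg1, the stem cell receptor GPR56, fell from 246 and 363 to 18.4 and 16.6. All 3 were dim in pre-cDC. Cd9, a tetraspanin, and Cd244a, a SLAM-family receptor, rose by 1.16 and 1.04. Plac8 read 6459 and 6169.9 in CDP and 5927 and 5498 in pre-cDC and did not pass the test.

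Of 10 genes of primary granule proteins, 7 fell and 2 rose (median -1.01). Prtn3, proteinase 3, read 2561 and 3064 in CDP and 163 and 110.0 in pre-cDC, and Serpinb1a, an inhibitor of these proteases, fell from 757 and 871 to 195 and 145. Ctsg, cathepsin G, read 1900.0 and 2168 in CDP and 17.8 and 13 in pre-cDC, a difference of -5.44 ± 0.10 (SE, adjusted p = 6.56e-12). The fall of Mpo, Ctsg and Prtn3 was not shared by the whole list: Lyz2, lysozyme of the monocyte lineage, rose from 495 and 454 to 2436 and 2306 (2.25 ± 0.14 SE, adjusted p = 9.14e-08), and Ctsc, which activates granule proteases, rose by 0.83. Of 14 secondary granule and neutrophil genes, 7 were below 32 in both groups, 3 rose and 4 fell (median -0.081). Csf3r, the G-CSF receptor, fell from 85 and 115 to 31 and 35, and Mmp8 from 47.4 and 43.2 to 5.51 and 4.54. The count of falls was 2 without CDP replicate 1 and 2 without pre-cDC replicate 2, as S100a8 and S100a9 (-0.98 and -0.97) then lost their calls. Itgam, the CD11b integrin chain, rose from 51.8 and 56.1 to 255 and 208.

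The Mpo promoter is shown as that of the gene with the largest fall, over chr11:87793534-87793783 on the plus strand, with the Ets/PU.1 letters GAGGAAGT in capitals, 224 bases before the start.
Mpo: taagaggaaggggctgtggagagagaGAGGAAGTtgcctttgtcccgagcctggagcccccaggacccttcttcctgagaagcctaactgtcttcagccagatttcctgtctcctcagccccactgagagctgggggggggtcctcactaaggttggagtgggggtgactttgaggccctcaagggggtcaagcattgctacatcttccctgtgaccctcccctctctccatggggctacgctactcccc

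MHC class II presentation was the list with the highest median, 1.27. Of 11 measured genes, 9 rose, 1 fell, and 7 rose by at least 2-fold. H2-Eb1 read 182 and 128 in CDP and 2408 and 2919 in pre-cDC, a difference of 3.86 ± 0.15 (SE, adjusted p = 1.89e-09). H2-Aa, the alpha chain of I-A, read 762 and 595 in CDP and 4905 and 5615 in pre-cDC, a difference of 2.90 ± 0.17 (SE, adjusted p = 5.77e-08). Cd74, the invariant chain that escorts class II to endosomes, read 998 and 729 in CDP and 4387 and 4640.0 in pre-cDC, a difference of 2.36 ± 0.27 (SE, adjusted p = 2.00e-05). In each of these the 4 groups stood in the order GMP, CMP, CDP and pre-cDC with no overlap between CDP and pre-cDC. The class II transactivator Ciita, named here after its values were seen, rose from 17.9 and 15.5 to 140.5 and 159. Of the same list, H2-Ob, a chain of the H2-O modulator of peptide loading, fell from 242 and 217 to 94.4 and 112 (-0.95 ± 0.14 SE, adjusted p = 1.82e-04), whereas its partner H2-Oa, also named after its values were seen, rose from 97.7 and 87.5 to 217 and 196. H2-Eb2 was dim throughout, with a difference of -0.033 that did not pass the test.

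Promoters of 3 class II genes are shown because H2-Eb1, H2-Aa and H2-Oa rose together and share letters there. The Y box CTGATTGG, the element of class II promoters bound by NF-Y, was added to the search after the data were seen and stands in capitals in the 150 bases before each start. The windows are chr17:34305717-34305866 (plus strand), chr17:34287824-34287973 (minus strand) and chr17:34092229-34092378 (plus strand) of GRCm38.p6, from RefSeq.
H2-Eb1: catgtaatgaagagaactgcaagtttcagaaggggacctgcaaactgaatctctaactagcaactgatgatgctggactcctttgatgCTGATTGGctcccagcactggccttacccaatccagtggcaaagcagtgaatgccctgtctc
H2-Aa: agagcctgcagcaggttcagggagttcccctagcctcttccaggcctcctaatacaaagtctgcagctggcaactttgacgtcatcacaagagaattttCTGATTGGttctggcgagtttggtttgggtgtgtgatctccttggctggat
H2-Oa: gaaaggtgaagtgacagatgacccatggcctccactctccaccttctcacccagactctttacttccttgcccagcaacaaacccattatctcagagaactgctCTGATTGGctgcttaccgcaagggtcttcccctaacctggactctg
The Y box began 62 bases before the start in H2-Eb1, 51 in H2-Aa and 46 in H2-Oa. It was found in 4 of the 9 windows of the list (44.4%), in 4.69% of the 18109 windows of all measured genes, in 3.94% of those of genes at least 4-fold higher and in 2.38% of those at least 4-fold lower. The share in the list was computed on genes known for this element and was not tested.

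Genes of class I presentation changed in both directions. Of 14 genes, 5 rose and 3 fell (median 0.096), and 3 rose in the fit of the 4 arrays alone. Tapbp, tapasin of the peptide loading complex, rose from 1574 and 1378 to 2596 and 2452, and the heavy chain H2-D1 from 2819.7 and 2755 to 4645 and 4619.9. For H2-D1, 4 of its 9 probe sets were called higher and 5 were not called. Tap2, a subunit of the peptide transporter, fell from 604 and 744 to 235 and 210.2 (-1.47 ± 0.13 SE, adjusted p = 2.55e-06), and Erap1, which trims peptides, fell from 152 and 175 to 40.7 and 41.1. The immunoproteasome genes Psmb8 and Psme1 did not pass the test (-0.050 and 0.0027).

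**Figure D3:**
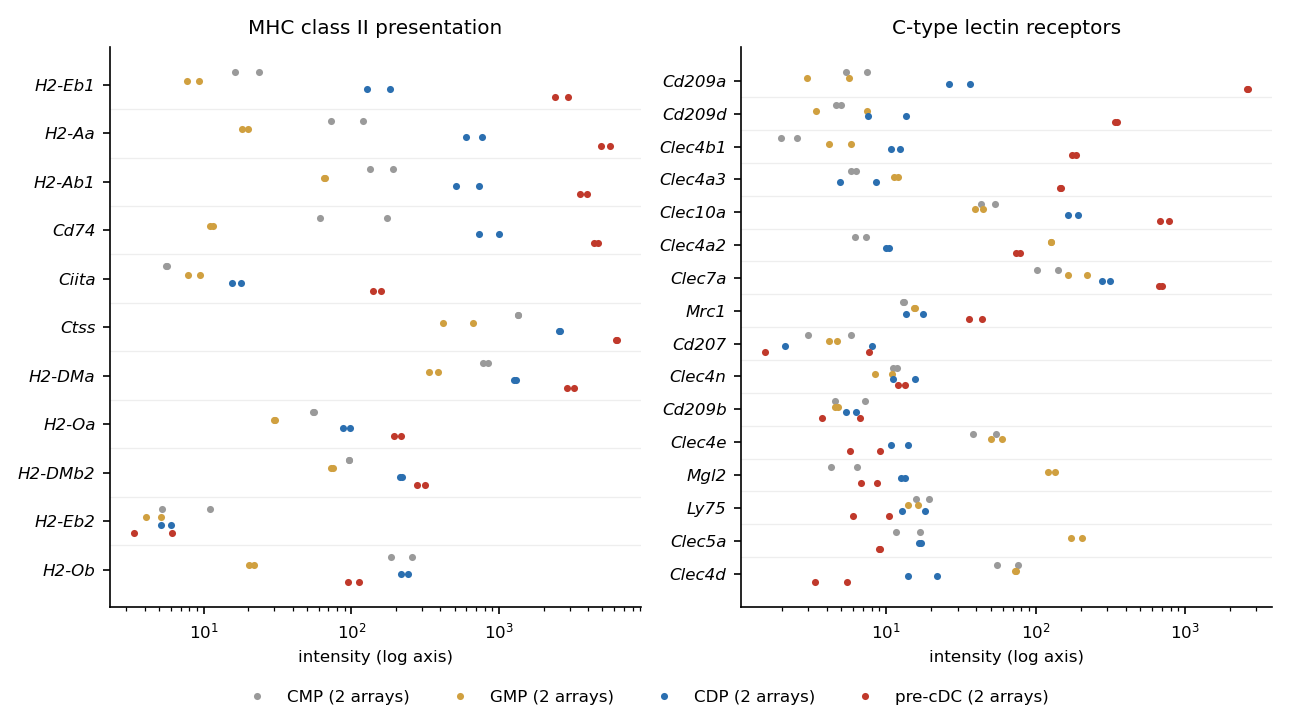
Intensity (log axis) of 11 genes of MHC class II presentation (left) and 16 C-type lectin receptor genes (right) on each of the 2 arrays of CMP, GMP, CDP and pre-cDC; each point is 1 array. H2-Eb1, H2-Aa, H2-Ab1 and Cd74 are intermediate in CDP and highest in pre-cDC. Cd209a, Cd209d, Clec4b1 and Clec4a3 are dim in CDP and separated in pre-cDC, and Cd209a is already higher in CDP than in CMP and GMP.

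Of 21 genes shared by classical dendritic cells, 11 rose and 2 fell (median 0.34). The rises include Itgax, the gene of CD11c, which was part of the gates, so its rise is no result of the comparison. Btla, an inhibitory receptor, read 157 and 167 in CDP and 1620.5 and 1897 in pre-cDC, a difference of 3.20 ± 0.13 (SE, adjusted p = 2.41e-09). P2ry10, a lipid receptor, rose from 50.2 and 33.6 to 351 and 300.3, and Kmo, kynurenine monooxygenase, from 360.0 and 304 to 1324 and 1174. Ccr7, the receptor that guides mature dendritic cells to lymph nodes, was dim and fell from 49.98 and 41.2 to 5.65 and 6.38. Spint2, a serine protease inhibitor, fell by 1.59. Hmgn3 did not pass the test (-0.065).

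The markers of the 2 cDC branches differed in their counts. Of 16 cDC2 genes, 9 rose and 0 fell (median 0.74), with Cd209a, S100a4, Cd300a and Clec10a leading. Clec10a, a galactose-binding lectin, rose from 193 and 165 to 683 and 776, and Cd300a, an inhibitory receptor, from 341 and 279 to 1457 and 1097. Csf1r and Ltb did not pass the test (0.11 and -0.21). Of 13 cDC1 genes, 3 rose and 3 fell (median -0.057), and 1 rose without GMP replicate 2, without CDP replicate 2, without pre-cDC replicate 2 and in the fit of the 4 arrays alone. Naaa, an acid amidase of cDC1, rose from 96.8 and 67.6 to 474 and 426 (2.09 ± 0.13 SE, adjusted p = 1.38e-07). Cd24a fell from 2882 and 3145 to 1834 and 1622, and Rab7b from 238 and 160.0 to 99.4 and 64. Wdfy4, needed for cross-presentation, read 1274 and 1176 in CDP and 985 and 1003 in pre-cDC and did not pass the test, and Ppt1 did not pass either (-0.12). Cd24a was also bright in CMP (3081 and 2918) and GMP (3101 and 3366). Group means were below 32 in both CDP and pre-cDC for 7 of the 13 cDC1 genes and 6 of the 16 cDC2 genes. The difference between the 2 lists was not tested, and the counts do not show a lean towards either branch.

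Of 16 C-type lectin receptor genes, 8 rose and 1 fell (median 0.29), and 8 had means below 32 in both groups. Cd209d, a relative of Cd209a, read 13.5 and 7.56 in CDP and 352 and 342 in pre-cDC, a difference of 3.16 ± 0.10 (SE, adjusted p = 6.27e-10). Clec4b1 rose from 12.3 and 10.8 to 175 and 187 and Clec4a3 from 8.58 and 4.88 to 148 and 146, both of the Dectin-2 and DCIR cluster. Cd209 and Clec4a genes have close relatives, and a 3' probe set can read more than 1 of them. Clec4n did not pass the test (-0.025). The promoter of Cd209d, at chr8:3878500-3878649 on the minus strand, is shown because it holds the Ets-IRF composite, in capitals, which begins 70 bases before the start and is read here on the opposite strand.
Cd209d: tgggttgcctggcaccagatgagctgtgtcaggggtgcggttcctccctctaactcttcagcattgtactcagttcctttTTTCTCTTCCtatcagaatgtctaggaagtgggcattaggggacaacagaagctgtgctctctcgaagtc

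Genes tied to plasmacytoid dendritic cells were split. Of 15, 8 rose and 5 fell (median 0.49). Upb1, beta-ureidopropionase, read 255 and 205 in CDP and 2365 and 2243 in pre-cDC, a difference of 3.16 ± 0.13 (SE, adjusted p = 2.41e-09). Siglech, a surface lectin of plasmacytoid cells and some precursors, rose from 54.6 and 40.7 to 171 and 148, and Bst2, tetherin, from 927 and 736 to 2309.7 and 2009. Dntt and Ptprcap fell, the latter from 429 and 453 to 82.7 and 58, and Cox6a2 fell by 0.81. Tlr7 and Tlr9, the endosomal nucleic acid receptors of these cells, were at or below 32 in both groups, with differences of -0.46, which passed the test, and 0.010, which did not.

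Of 21 interferon-stimulated genes, 14 rose and 2 fell (median 0.74). Irf7, the interferon-inducible factor of the type I response, read 42.2 and 29.2 in CDP and 344 and 259 in pre-cDC, a difference of 2.30 ± 0.13 (SE, adjusted p = 6.13e-08). Mx1, an antiviral GTPase, read 107 and 96.2 in CDP and 576 and 626 in pre-cDC, a difference of 2.24 ± 0.11 (SE, adjusted p = 1.45e-08). Ifitm3, a membrane protein that blocks viral entry, rose from 1464 and 1369 to 5577 and 5431, and Usp18, which damps interferon signalling, from 69.6 and 42.9 to 248 and 187. Ifitm1, from the same cluster as Ifitm3, fell from 481 and 406 to 94 and 96.9 (-1.90 ± 0.13 SE, adjusted p = 2.27e-07), and Ifit2 fell by 0.65. Oas1a and Rtp4 did not pass the test (0.47 and 0.090).

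Receptors for cytokines changed in both directions: of 30, 11 rose and 9 fell (median 0.20). The falls include Il7r, whose protein was absent by gate in both groups. Il10ra, the IL-10 receptor chain, rose from 95.3 and 72.8 to 529 and 576 (2.34 ± 0.13 SE, adjusted p = 3.07e-08). Lifr, the LIF receptor, rose from 132 and 191 to 717 and 1083, and Il13ra1 from 16.1 and 11.9 to 174 and 166. Csf2ra, the alpha chain of the GM-CSF receptor, rose from 894 and 903 to 2514 and 2923 (1.56 ± 0.10 SE, adjusted p = 1.58e-07). Receptors for IL-18 and IL-1 fell, Il18r1 from 69.9 and 85.5 to 4.35 and 7.49 and Il1r1 from 56.6 and 79 to 5.03 and 4.39. Csf1r and Il6st stayed bright and did not pass the test (0.11 and 0.041). Among 17 JAK, STAT and SOCS genes, 8 rose and 2 fell (median 0.096). The kinases Jak2 and Tyk2 rose from 626 and 569 to 1931 and 2016 and from 177 and 201 to 566 and 599. Stat2 rose by 1.02 and the kinase Pim1 by 0.90, while Socs2, a feedback inhibitor, and Jak3 fell (-0.47 and -0.45). Jak1 and Stat5b did not pass the test (0.096 and -0.040).

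Of 24 chemokine receptor and integrin genes, 13 rose and 4 fell (median 0.39). The count of falls was 2 without CDP replicate 1, without pre-cDC replicate 2 and in the fit of the 4 arrays alone. Itgb2, the beta chain that pairs with CD11c and CD11b, read 252 and 204 in CDP and 2101 and 2207 in pre-cDC, a difference of 3.08 ± 0.13 (SE, adjusted p = 4.71e-09). Itgb7 rose from 924 and 799 to 2959.8 and 3110.4. Ccr2, which brings myeloid cells out of the marrow, rose from 1208 and 1086 to 3424 and 3627 (1.59 ± 0.14 SE, adjusted p = 1.75e-06), and Ccr1 from 15.3 and 19.98 to 146 and 162. Cxcr4, the receptor that retains cells in the marrow, read 938 and 754 in CDP and 685 and 523 in pre-cDC and fell by 0.47, but not without CDP replicate 1 (-0.32, adjusted p = 0.201), without pre-cDC replicate 2 (-0.28, adjusted p = 0.245) or in the fit of the 4 arrays alone (adjusted p = 0.0584). Itga6, a laminin receptor chain of progenitors, fell from 274 and 272 to 80.7 and 65.5. Itgal and Itga2b did not pass the test (-0.027 and -0.29).

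A list of genes of the actin cytoskeleton, annexins, small S100 proteins and others linked to motility rose nearly throughout. Of its 22 genes, 18 rose and 0 fell, with a median of 0.87. Lgals3, galectin-3, a lectin counted with this list, read 603 and 415 in CDP and 4722 and 4722 in pre-cDC, a difference of 3.16 ± 0.16 (SE, adjusted p = 1.53e-08). S100a4 read 789 and 607 in CDP and 5079 and 5118 in pre-cDC and S100a6 767 and 659 in CDP and 3919 and 3934 in pre-cDC, differences of 2.82 and 2.41. Lsp1, an F-actin-binding leukocyte protein, rose from 1204 and 961 to 4365 and 3929.6. Pfn1 and Tmsb10, bright in both groups, did not pass the test (0.23 and 0.067).

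Innate sensing and its signalling showed rises with few falls. Of 23 pattern receptor genes, 10 rose and 1 fell (median 0.19), but 13 had means below 32 in both groups. Tlr2, which senses lipopeptides, rose from 53.6 and 50.2 to 217 and 263 (1.69 ± 0.11 SE, adjusted p = 2.06e-07), and its partner Tlr1 from 59.98 and 42.6 to 189 and 222. Cd180, a Toll-like receptor homologue, rose from 191 and 186 to 696 and 784, and Naip2, a sensor of bacterial secretion systems, from 46 and 44.7 to 176 and 178. Sting1 and Nod1 did not pass the test (-0.20 and -0.27). Among 15 Fc receptor and ITAM or ITIM signalling genes, 10 rose and 1 fell (median 0.86). The fall was that of Fcgr3, a gene of the CD16/32 gate that was dim in both groups. Pirb, a paired inhibitory receptor for class I, read 44.9 and 32.4 in CDP and 649.5 and 707 in pre-cDC, a difference of 3.33 ± 0.12 (SE, adjusted p = 1.12e-09). The Src-family kinase gene Fgr rose from 29.8 and 18.5 to 204 and 210.1, and Fcer1g, the common signalling chain, from 2011 and 1738 to 4100.4 and 4138. Vav1 and Btk did not pass the test (0.23 and -0.37).

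In the NF-kB list 10 of 15 genes rose and 0 fell (median 0.85). Nfkbiz, an inducible nuclear regulator, rose from 325 and 295 to 988 and 1209 (1.72 ± 0.15 SE, adjusted p = 1.83e-06), and Ikbkb, the kinase of the canonical route, from 708 and 754 to 1532 and 1723. Bcl3 and Nfkbie rose by 1.05 and 0.97, while Rela and Nfkbib did not pass the test (0.20 and 0.17). Costimulatory and T cell-directed genes were mostly dim in both groups. Of 17, 7 rose and 0 fell (median 0.22). Tnfsf9, the 4-1BB ligand, rose from 61.2 and 70.03 to 492 and 600.5 (2.56 ± 0.12 SE, adjusted p = 1.08e-08), Icosl from 40.9 and 38.3 to 199.9 and 187, and Cd40 from 9.64 and 12.4 to 54.3 and 67.1. Cd48, bright in CDP, rose from 2045 and 1966 to 4195 and 3866. Fscn1 and Il15 did not pass the test (0.11 and -0.15).

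The promoter of Cybb, the catalytic chain of the phagocyte oxidase, is shown because it held 3 matches to the interferon-stimulated response element, at 168, 124 and 29 bases before the start; the gene was chosen after its values were seen. Cybb read 161 and 170.3 in CDP and 1721 and 1736 in pre-cDC, a difference of 3.15 ± 0.12 (SE, adjusted p = 1.60e-09). The window is chrX:9469325-9469574 on the minus strand, with matches in capitals and the 2 farther ones read on the opposite strand.
Cybb: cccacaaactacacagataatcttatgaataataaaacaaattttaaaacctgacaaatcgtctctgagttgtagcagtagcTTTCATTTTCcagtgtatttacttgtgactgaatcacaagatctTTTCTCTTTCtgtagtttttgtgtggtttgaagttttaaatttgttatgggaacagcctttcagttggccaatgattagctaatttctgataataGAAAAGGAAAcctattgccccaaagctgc

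Immediate early genes, which are induced within minutes by growth factors and stress, were higher in pre-cDC: 18 of 24 rose and 2 fell, with a median of 0.80. Atf3 read 56.4 and 25.1 in CDP and 1081 and 1003 in pre-cDC, a difference of 3.92 ± 0.18 (SE, adjusted p = 8.14e-09). Nr4a1, an orphan nuclear receptor, rose from 89.98 and 79.2 to 364 and 542, Ier5 from 503 and 473 to 2056 and 2258, and Junb from 952 and 874 to 2201 and 2654. Dusp2, a phosphatase of MAP kinases, fell from 529 and 685 to 173 and 219.9, and Ier3 fell by 1.07. Rgs1 and Gadd45b did not pass the test (0.57 and 0.098).

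Within the cell cycle, genes of DNA replication and genes of mitosis moved in opposite directions. Of 30 replication genes, 0 rose and 27 fell (median -0.84). Gins2, of the replicative helicase complex, read 345 and 328 in CDP and 105 and 80.5 in pre-cDC, a difference of -1.57 ± 0.12 (SE, adjusted p = 7.11e-07). Rfc4, of the clamp loader, fell from 531 and 534 to 193 and 138. Mcm3, a helicase subunit, fell from 1905 and 1758 to 756 and 625, and Pola1, the catalytic chain of DNA polymerase alpha, from 698 and 787 to 299 and 251. Each of these 4 genes had both pre-cDC arrays below both CDP arrays. Rrm2 and Pold1 did not pass the test (-0.25 and 0.0015). Of 29 genes of mitosis, 19 rose and 1 fell (median 0.50), though only 1 rose by at least 2-fold. Ube2c, the ubiquitin-conjugating enzyme of the anaphase-promoting complex, read 1041 and 809 in CDP and 2005 and 1888 in pre-cDC, a difference of 1.06 ± 0.16 (SE, adjusted p = 2.01e-04). Bub1b, of the spindle checkpoint, rose from 594 and 527 to 1054 and 1059.8, and the centromere genes Cenpa and Cenpf rose by 0.87 and 0.85. Top2a and Smc2 did not pass the test (0.24 and 0.11).

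The regulators of the G1 phase were divided. Of 18, 8 rose and 6 fell (median 0.011). Ccnd2, cyclin D2, read 1848 and 2030.2 in CDP and 213 and 156 in pre-cDC, a difference of -3.20 ± 0.12 (SE, adjusted p = 1.60e-09). Its kinase partner Cdk6 read 3221 and 3718 in CDP and 515 and 524 in pre-cDC, a difference of -2.66 ± 0.087 (SE, adjusted p = 6.30e-10), and Cdk4 fell by 1.35. Both Ccnd2 and Cdk6 were at CMP levels of 1425 and 1529 and 3099 and 3253, so the pre-cDC values were the lowest of the 3 stages. Ccnd1, cyclin D1, rose instead, from 846 and 707 to 1594 and 1786. Among inhibitors of these kinases, Cdkn2d (p19) rose from 386 and 358 to 1167 and 1197 (1.59 ± 0.10 SE, adjusted p = 1.83e-07), while Cdkn1a (p21) fell by 0.69. Rb1, the retinoblastoma gene, rose by 1.03, and Btg2, an antiproliferative gene that is also an immediate early gene, by 1.33. Rbl2 and the dim Cdkn1c did not pass the test (-0.10 and -0.054).

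**Figure D4:**
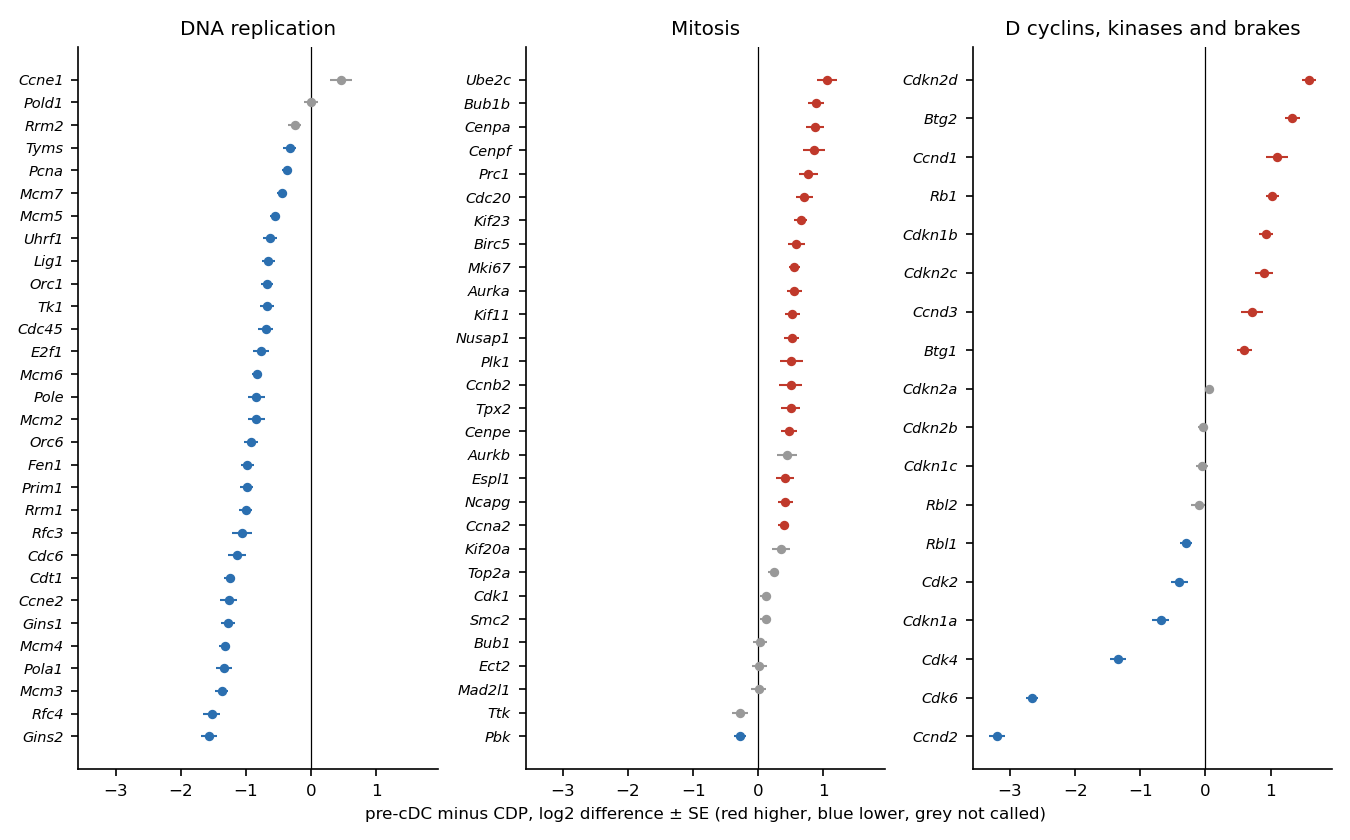
Pre-cDC minus CDP log2 difference with its standard error (bars) for 30 genes of DNA replication, 29 of mitosis and 18 regulators of G1; red points rose, blue points fell, grey points were not called. In the replication panel 27 genes lie to the left of 0 and passed the test, in the mitosis panel 19 lie to the right, and in the third panel Ccnd2 and Cdk6 are far to the left and Cdkn2d far to the right.

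Nearly all measured genes of ribosome biogenesis fell. Of 28 genes, 0 rose and 26 fell, with a median of -0.92. Gar1 and Dkc1, of the H/ACA small nucleolar particles, fell from 738 and 627 to 181 and 160.1 and from 1408 and 1244 to 521 and 432. Wdr12, of the large subunit assembly complex, fell from 519 and 614 to 161 and 172, and Gnl3, nucleostemin, from 687 and 1034 to 245 and 294. Fbl, fibrillarin, read 2089.8 and 2156 in CDP and 1984 and 1809.8 in pre-cDC and did not pass the test, nor did Bysl (-0.27). Both genes have 2 probe sets, and for each the other one, 1 of 2, was called lower.

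Of 23 genes of oxidative phosphorylation, 0 rose and 13 fell (median -0.27), none by 2-fold. This count rested on single arrays: it was 7 without CDP replicate 1, 4 without pre-cDC replicate 2 and 7 in the fit of the 4 arrays alone. Sdhc, of succinate dehydrogenase, fell most, from 367 and 352 to 227 and 174. Of 17 glycolysis genes, 5 rose and 8 fell (median -0.23). The hexokinase Hk3 fell from 610.0 and 665 to 90.3 and 82.6 (-2.50 ± 0.11 SE, adjusted p = 5.11e-09), Hk2 rose from 444 and 349 to 793 and 840.5 (0.99 ± 0.14 SE, adjusted p = 1.11e-04), and Hk1 did not pass the test (-0.23). The phosphofructokinase Pfkp rose from 200.3 and 179.6 to 659.7 and 633, and Pgk1, phosphoglycerate kinase, fell from 1916 and 1792 to 1225 and 1060.5. Tpi1, triosephosphate isomerase, fell from 1548 and 1463 to 484 and 360.1. Of 20 sterol and fatty acid genes, 7 rose and 2 fell (median 0.082). Hmgcs1, an early enzyme of sterol synthesis, rose from 430.4 and 353 to 887 and 807, and Srebf2 and Insig1, its regulators, rose by 0.82 and 0.80.

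Of 22 lysosomal genes, 16 rose and 2 fell (median 0.54). Cd68, an endosomal glycoprotein, read 182 and 161 in CDP and 1217 and 1005 in pre-cDC, a difference of 2.49 ± 0.12 (SE, adjusted p = 1.44e-08). The proteases Ctsh and Ctsa rose from 1459.7 and 1219.5 to 3549 and 3609.9 and from 601 and 575 to 1478 and 1488, and Tfeb, the transcription factor of lysosomal genes, rose by 1.03. Ctsd, cathepsin D, fell from 535 and 543 to 273 and 219 (-1.05 ± 0.11 SE, adjusted p = 1.53e-05). Lamp1 and Lamp2 did not pass the test (0.20 and 0.20).

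Among 13 genes of the Bcl2 family, 4 rose and 2 fell (median 0.040), and 4 fell when the moderation did not follow intensity. Bcl2, the survival protein, read 2167 and 2340.4 in CDP and 577 and 536 in pre-cDC, a difference of -1.96 ± 0.088 (SE, adjusted p = 6.28e-09). Mcl1, a second survival protein, read 2124 and 2178 in CDP and 4044 and 4649 in pre-cDC, a difference of 1.0 ± 0.085 (SE, adjusted p = 1.71e-06). Of the BH3-only genes that oppose them, Pmaip1 (Noxa) read 186 and 168 in CDP and 1493 and 1849 in pre-cDC, a difference of 3.02 ± 0.12 (SE, adjusted p = 3.26e-09), and Bmf and Bbc3 rose by 1.89 and 0.71. Bid fell by 0.97. Bak1 and Bad did not pass the test (0.14 and -0.27).

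**Figure D5:**
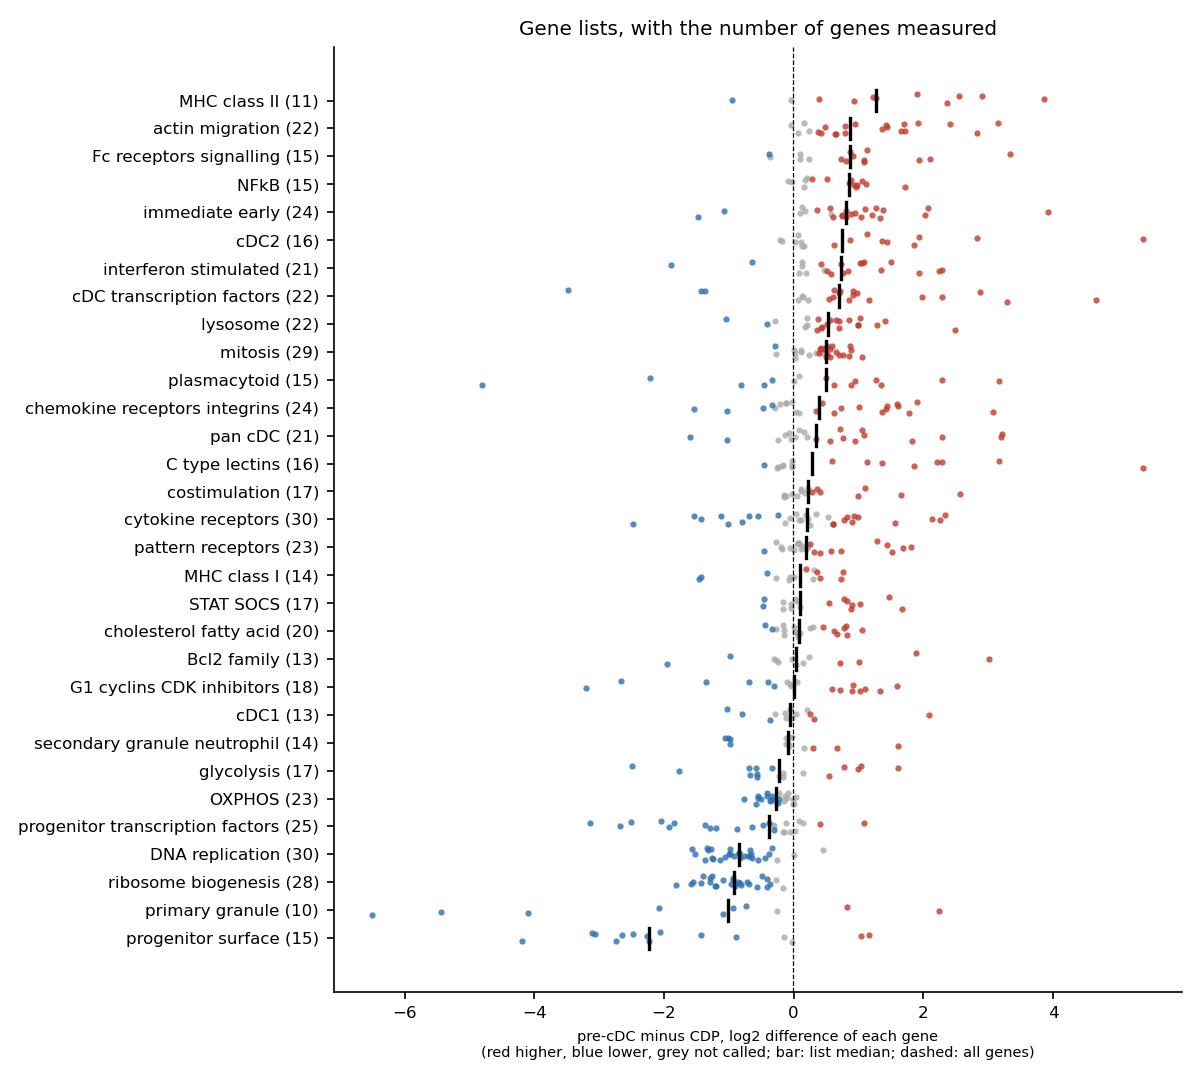
Pre-cDC minus CDP log2 difference of each gene (points) in 31 gene lists, ordered by list median (black bar), with the number of genes measured in brackets; red points rose, blue points fell, grey points were not called, and the dashed line is the median of all genes. MHC class II and the actin and migration list have the highest medians, and progenitor surface, primary granule, ribosome biogenesis and DNA replication the lowest.

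Markers of other cells that a sort could hold were measured beside these groups. Of 15 monocyte and macrophage markers, 8 rose and 1 fell, and their summed intensity was 11713 and 12574 in CDP and 18150.3 and 17971 in pre-cDC. The macrophage genes Mertk, C1qa, C1qb, C1qc and Vcam1 were below 32 in both groups, while Fn1, Lyz2, Ccr2 and Itgam rose and F13a1 fell. These genes move with the phagocyte and migration groups, and their part in those results was not tested. Of 8 neutrophil markers, 1 rose and 3 fell, with sums of 470.0 and 358 in CDP and 356 and 318 in pre-cDC, and 1 fell without CDP replicate 1 or without pre-cDC replicate 2. Erythroid, megakaryocyte, mast cell or basophil and T or NK markers had 0, 0, 0 and 0 rises and 2, 1, 2 and 2 falls. Car2 and Mcpt8 fell from 112 and 151 to 5.59 and 10.03 and from 44.2 and 66.4 to 2.8 and 3.97, and Cd28 from 49.5 and 43.6 to 11.4 and 11.7. Of 9 B cell markers, 2 rose and 2 fell. Cd22, a sialic acid-binding receptor of B cells, rose from 149 and 120.3 to 584 and 631. Ebf1, a transcription factor of early B cells, rose from 143 and 91.2 to 161 and 165 (0.41 ± 0.14 SE, adjusted p = 0.0493), a call lost in 7 of the 8 fits that left out an array, and Cd79b and Blnk fell from 187 and 181 to 129.7 and 105 and from 109 and 89.98 to 74.3 and 59.8. Igll1 read 65.8 and 75.7 in CDP and 71.8 and 69.6 in pre-cDC and did not pass the test, and Cd79a, Pax5, Vpreb1 and Ms4a1 were below 32 on every CDP and pre-cDC array. The 8 stromal and endothelial markers were all below 32, with 3 small rises.

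The step from CDP to pre-cDC was set against the step from CMP to CDP by testing the difference of the 2 steps, which share the CDP arrays. By this test 1880 genes (10.3%) differed, 782 (4.30%) with a more positive and 1098 (6.04%) with a more negative second step, but the count was 964 without CDP replicate 2. The dendritic factors Spib, Irf4 and Zbtb46 had step differences of 3.89, 3.02 and 2.76, each more positive in the second step. Irf8 had a step difference of -1.05 (adjusted p = 2.37e-04), with its larger change in the first step. The class II genes were divided: H2-Eb1 differed between the steps (2.02), whereas H2-Aa, H2-Ab1 and Cd74 did not pass this test (0.42, 0.81 and -0.32), and all 4 had risen already from CMP to CDP, by 1.84, 2.48, 1.74 and 2.68. Mpo had a step difference of -6.29 and Cd34 of -3.69. Nfil3 reversed its direction between the steps, with a difference of -6.08 ± 0.20 (SE, adjusted p = 6.13e-09). Slpi showed the same shape, at 384 and 409 in CMP, 1047 and 1008 in CDP and 59.9 and 44.3 in pre-cDC, and so did the receptors Ccr7 (9.18 and 10.2 in CMP, 49.98 and 41.2 in CDP) and Il18r1 (18.9 and 21.9 in CMP, 69.9 and 85.5 in CDP). All 4 therefore had their highest level of the 3 stages in CDP.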

How the data were processed

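Expression in sorted mouse bone marrow cells was measured on one-colour Affymetrix arrays with 3' labelling, per the labels' protocols. The authors deposited linear intensities, 1 per probe set and array, and every column matched a sample. The software, background correction and scaling are not given in the sources used here. Of 45037 probe sets, 34945 had 1 gene in the platform annotation, 932 several and 9160 none, and only the first were used. Of the 18193 genes, 9183 had 1 probe set and 18145 matched the reference symbols; the others were represented by the probe set with the highest mean log2 over all 15 arrays. Of 9010 genes with several probe sets, 3535 were called, 1120 of them with every probe set called the same way and 60 with a probe set called the other way. A gene not called can have another probe set that was: for example, Il6st and Ikzf2 had 1 called lower, and Itgal and Fscn1 had 1 called higher. A called gene can rest on few probe sets: for example, Icosl, Il10ra, Bmf and Ebf1 had 1 called higher, of 2, 3, 3 and 5.

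Values were transformed as log2(intensity + 32) and fitted with limma (version 3.58.1 under R 4.3.3, with empirical Bayes moderation that follows intensity) on the 8 progenitor arrays in 4 groups, which share 1 estimate of the spread (4 residual degrees of freedom, 12.43 after moderation). Tests were two-sided, adjusted by Benjamini-Hochberg over all 34945 probe sets at 0.05, and checked on simulated data. The precision is limited by 2 arrays a group. The members and the 31 gene lists with their 683 symbols, 621 of them measured, were chosen with earlier results of these data known. Genes named were Cd209a, Spib, Zbtb46 and Mpo, the 12 largest rises and 12 largest falls without overlap (unnamed models, Xist, Y-linked genes and antibody segments passed over), up to 4 members of each list in each direction and up to 2 not called, the genes of sorting markers, and both transcription factor lists in full; others are said to have been chosen after their values were seen. Lists are described by counts and medians with no set test. Promoter letters came from RefSeq (GRCm38.p6). Tables were handled with pandas 2.3.3 and numpy 2.4.6 and figures drawn with matplotlib 3.10.9 in Python 3.11.15. Alternatives were the added constant, a filter on dim probe sets, 2 normalizations, the arrays and the trend in the fit, the probe set chosen, a replicate block and leaving out each array.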

Additional observations from a re-analysis of the deposited data

How the results depend on the processing

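The counts of genes and probe sets called stayed within 1.5 times the values reported under each alternative run, with 1 exception among the step differences. Leaving out each array in turn gave 4398 to 5566 genes called (5817 reported), 1132 to 1320 genes at 2-fold or more, 7235 to 9423 probe sets, and 964 to 1809 genes with a step difference, the lowest without CDP replicate 2. The share of calls that were higher lay between 42.2% and 45.7%. Leaving out each array kept 279 to 298 of the 305 genes named by rule on their side of the threshold. Quantile normalization turned Cox4i1 to -0.2213 (adjusted p = 0.0130), and the probe set with the highest mean over the 8 progenitor arrays turned Mycn to -0.6762 (adjusted p = 5.46e-05); in the fit reported both were not called, and the cause was not tested. The replicate block gave 6163 genes, 1185 at 2-fold or more, 10505 probe sets and 2214 step differences. Same-numbered CDP and pre-cDC arrays deviated together (correlation 0.319 over 17472 probe sets), the other 5 group pairs gave -0.004 to 0.216, and with 2 numbers and no label of a shared source they were not taken as pairs.

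List counts were recomputed in the same way after the data were seen, under 8 fits that each left out an array and 10 other alternatives. The count that moved most in number was that of falls in oxidative phosphorylation, 4 to 19 over all of them (13 reported). Falls in mitosis (1 reported) were 0 in 6 of the 8, all but those without CDP replicate 2 and pre-cDC replicate 1. Falls in cholesterol and fatty acid genes (2) were 1 without each CDP or pre-cDC array, and falls in lysosome genes (2) were 1 in the same fits except that without CDP replicate 2. C-type lectin falls (1) were 0 without pre-cDC replicate 2 and 2 without pre-cDC replicate 1 and in 5 of the other 10, and Fc receptor falls (1) were 0 without CDP replicate 2 or pre-cDC replicate 1. Rises among progenitor factors (2) were 1 in 5 of the 8, those without either GMP array, CDP replicate 1 or either pre-cDC array. A rise in DNA replication (0 reported) appeared in 3 of the 8, without GMP replicate 1, CDP replicate 2 or pre-cDC replicate 1, and in 6 of the other 10. Among markers, falls were 1 in 7 of the 8 for erythroid genes (all but CDP replicate 1), 1 in 6 for mast cell genes (each CMP, CDP and pre-cDC array) and 1 in 3 for T or NK genes (all but CDP replicate 2 among CDP and pre-cDC arrays), each 2 as reported. Megakaryocyte falls (1) were 0 in 5 of the 8, without either GMP array, either CDP array or pre-cDC replicate 2, and moved in 5 of the other 10. B cell rises (2) were 1 in 7 of the 8, all but that without CDP replicate 1, and B cell falls (2) were 1 without CDP replicate 1 and 0 without pre-cDC replicate 2. Stromal rises (3) were 1 without pre-cDC replicate 1 and 0 with dim probe sets filtered, which also took STAT and SOCS falls from 2 to 1 and pattern receptor falls from 1 to 0. The fit of the 4 arrays alone has no step difference, and fitting 1 probe set per gene has no probe set count.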

Other observations

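Genes outside the gene lists that changed widely were read after their values were seen, and they are given as values with no theme tested. Several belong to the handling of antigen. Ifi30, the lysosomal thiol reductase that opens disulfide bonds of antigens, read 779.8 and 681 in CDP and 4710.4 and 4817 in pre-cDC, a difference of 2.66 ± 0.12 (SE, adjusted p = 6.34e-09). Marchf1, the ubiquitin ligase that removes class II from the surface of immature dendritic cells, rose from 64.2 and 55.2 to 519.7 and 528, and Fcgrt, the neonatal Fc receptor chain, from 57.6 and 47 to 879.9 and 784. Cd1d1, which presents lipids, fell from 511 and 542 to 81.4 and 76.4, and Cst7, an inhibitor of lysosomal cathepsins, from 712 and 784 to 128 and 94.4. Among receptors for position in tissue, Gpr183, the oxysterol receptor EBI2 that places cDC2 in the spleen, read 101 and 89.9 in CDP and 518 and 460.2 in pre-cDC, and S1pr3, a sphingosine phosphate receptor, fell from 705 and 676 to 103 and 71.3. Irf5, a factor of inflammatory cytokine genes, rose from 124 and 104 to 604 and 644. Cd69, an activation antigen that holds cells in tissue, fell from 836 and 842 to 68 and 61.5 (-3.17 ± 0.11 SE, adjusted p = 1.22e-09), and Il12a, the p35 chain of IL-12, fell from 384 and 590.5 to 31.5 and 32.

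Some enzymes of biosynthesis also fell. Shmt2, the mitochondrial serine hydroxymethyltransferase, read 523 and 569 in CDP and 114 and 105 in pre-cDC, a difference of -2.03 ± 0.11 (SE, adjusted p = 2.70e-08), and the cytosolic Shmt1 fell from 221 and 255 to 26.9 and 20.2. The purine synthesis genes Ppat and Pfas fell as well (-1.97 and -1.72), as did Srm, spermidine synthase (-2.26). In the other direction, Tsc22d3 and Sgk1, which glucocorticoids induce in many cells, rose from 423 and 275 to 1852 and 1880.1 and from 63.8 and 46.5 to 748 and 894, and Ddit4, an inhibitor of mTORC1, rose from 152 and 132 to 861 and 882. Klrd1, the CD94 lectin of NK cells, rose from 244 and 267 to 1439 and 1709, while the T and NK genes Cd3e, Cd3g and Ncr1 were dim in both groups.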
